A study of Mus musculus with 12 samples.

Results

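The comparison described here is that of PUER cells carrying beta-catenin-S33Y with PUER cells carrying the empty vector, both before PU.1 was switched on. Its members were chosen by group label alone: the 3 β-catenin arrays at 0 h (A, B and C) and the 3 control arrays at 0 h, together 6 of the 12 arrays of the series, read across all genes. PUER is a mouse myeloid progenitor line that lacks its own PU.1 and carries PU.1 fused to a hormone-binding domain, so that 4-hydroxytamoxifen (4-OHT) switches PU.1 on. β-catenin cells were infected with a retrovirus for beta-catenin-S33Y, and control cells with the MIGR1 vector alone; in both, GFP-positive cells were sorted on day 5 after infection. The 0 h cells of both vectors had received no 4-OHT, whereas the 24 h cells, 3 arrays for each vector, had received 10 nM. RNA was read on single-colour Agilent whole-genome mouse arrays. The question addressed at 0 h is how progenitors given the stabilised β-catenin differed from control cells before differentiation was induced.

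β-catenin is the transcriptional arm of the Wnt pathway: without a Wnt signal it is phosphorylated and degraded, and the S33Y change removes a phosphorylation site, so that the protein accumulates and binds TCF/LEF factors on DNA. In blood, the Wnt pathway is known for roles in stem and progenitor cells and in leukaemia. PU.1 is the ETS factor that directs macrophage and neutrophil development, and GATA1 and GATA2, which it opposes, direct the erythroid, megakaryocyte, mast cell and eosinophil branches.

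Before 4-OHT, β-catenin cells had much higher signals for several granule genes of eosinophils, and higher signals for 6 of 16 factors of the GATA network. Of the mast cell and basophil genes, Cpa3, Hdc and Il1rl1 were clearly higher, while 14 of 21 were not called. Signals were lower for most of the AP-1 family, for 17 of 31 other immediate-early genes, for 13 of 26 integrin and adhesion genes and for most of a list of genes known to respond to low oxygen. The low-oxygen list was written after the differences had been seen, so its share is not to be read against all genes. Of 22461 genes tested, 2469 differed between β-catenin and control cells at 0 h (11.0%; limma, Benjamini-Hochberg adjusted p under 0.05, below written as called). Of these, 983 were higher in β-catenin cells (4.38%) and 1486 were lower (6.62%). Leaving out any 1 of the 6 arrays at 0 h gave 511 to 620 higher and 1018 to 1212 lower, the fewest without β-catenin array B, and array weights gave 2009 higher and 2341 lower. Under normexp correction with quantile normalization 1552 were higher and 1566 lower. Among the 13267 genes above background in a 0 h group, the main fit called 6.73% higher and 10.2% lower. The list counts below are set beside these shares and those over all genes for scale, other than the count of the low-oxygen list. The other lists were chosen with earlier results of these data known. A list's share above that over all genes is therefore a description and not a test. Most differences were small, with a median log2 difference of 0.48 among genes called higher and -0.62 among genes called lower. A change of at least 2-fold was seen for 88 called genes that were higher (0.392%) and 286 that were lower (1.27%). Among the largest differences the balance was the opposite, with 13 called genes higher and 8 lower by at least 3 on the log2 scale, and 7 higher and 1 lower by at least 4. The 3 arrays of the groups did not overlap for 7469 genes (33.3%), and for 2463 of the 2469 called genes. The median over all genes tested was 0.006. Since the values had been normalized, a median near 0 does not check that the groups are alike.

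**Figure D1:**
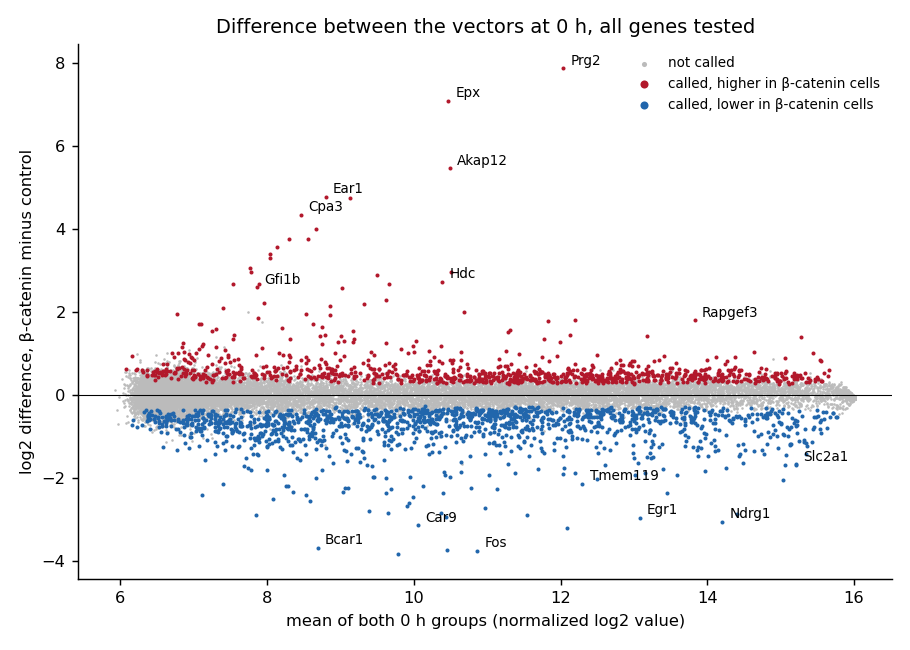
Each point is a gene tested, with 2 genes not reported here left out; the horizontal axis is the mean normalized log2 value of the 6 arrays at 0 h and the vertical axis the log2 difference, β-catenin minus control. Red points (983 in all) were called higher and blue points (1486) called lower in β-catenin cells; Prg2, Epx and Akap12 stand above the rest.

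Values are the submitters' normalized log2 intensities, and a level is never compared between genes, because each gene was read by its own probe. A gene was taken as above background on an array when it passed a bound set for that array, which lay between 7.23 and 7.54 at 0 h. Between 47.3% and 51.0% of genes passed it. At the bright end, 1.42% to 2.30% of spots were at the scanner's ceiling, where a probe gives only a lower limit. Fold changes that rest on a value under the bound or on the ceiling are therefore given as "at least". Arrays of 1 group at 0 h correlated at 0.9936 to 0.9953 and arrays of different groups at 0.9891 to 0.9907, and no array stood apart. Nothing in the labels says that arrays A, B and C came from separate infections, and the p-values then speak only for the variation among these samples, part or all of which could be technical. In bulk RNA, more cells of a type and more RNA per cell cannot be told apart.

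The labelled cell type was checked against defining genes. The progenitor genes Myb, Mpo, Prtn3 and Ctsg lay above 15 on every 0 h array of either vector, and Kit, the stem cell factor receptor, read 13.25, 13.09 and 12.84 in β-catenin cells and 12.85, 12.81 and 12.73 in control cells. Csf1r, the macrophage growth factor receptor, and Mrc1 and Fcgr1, which mark mature macrophages, were below background on all 6 arrays. The macrophage-linked genes Adgre1 and Itgam, in contrast, were above background on all 6 arrays, with values given below. Of other progenitor genes, Flt3 was below background on all 6 arrays, and Cd34 was measured but did not pass the filter on low values. Mpo is also counted below among the neutrophil granule genes. Ctnnb1 itself read 13.85, 13.78 and 13.99 in β-catenin cells and 13.87, 13.90 and 13.82 in control cells (log2 difference 0.01 ± 0.09, SE; adjusted p = 0.949). Where the Ctnnb1 probe lies is not given, so it does not check whether the transgene was expressed. Spi1, which encodes PU.1, was not called either, at 12.37, 12.13 and 12.16 in β-catenin cells and 12.71, 12.41 and 12.36 in control cells (-0.27 ± 0.11, adjusted p = 0.158).

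Promoters of 5 called genes are shown, chosen with their values known, because 4 of them stand for the granule, GATA and feedback genes described next with a short match to a factor's motif, and the other, Epx, had the highest fold among genes that were not at the ceiling. Each is the RefSeq window of 300 bases around the gene's start (GRCm38.p6), 5′ to 3′ on the gene's own strand. Capitals mark matches to any of 5 motifs searched on both strands: AGATAA or TGATAA for the factors of the GATA family, CTTTGAT or CTTTGTT for TCF/LEF factors, GAGGAAG for PU.1, TGACTCA for AP-1 and TGACGTCA for the cyclic AMP response element.
Epx (chr11:87875487-87875786, minus strand): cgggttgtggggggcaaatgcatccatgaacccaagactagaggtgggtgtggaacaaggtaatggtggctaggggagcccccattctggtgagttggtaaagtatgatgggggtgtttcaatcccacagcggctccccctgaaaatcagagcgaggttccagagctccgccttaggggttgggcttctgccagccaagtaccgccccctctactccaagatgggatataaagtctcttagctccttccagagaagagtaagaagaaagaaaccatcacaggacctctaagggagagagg
Cpa3 (chr3:20242132-20242431, minus strand): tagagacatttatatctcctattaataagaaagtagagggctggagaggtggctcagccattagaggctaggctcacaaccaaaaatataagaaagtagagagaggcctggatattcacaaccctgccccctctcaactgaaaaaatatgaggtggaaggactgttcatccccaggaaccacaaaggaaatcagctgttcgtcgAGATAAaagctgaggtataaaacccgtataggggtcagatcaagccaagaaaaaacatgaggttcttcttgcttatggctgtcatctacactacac
Gfi1b (chr2:28621933-28622232, minus strand): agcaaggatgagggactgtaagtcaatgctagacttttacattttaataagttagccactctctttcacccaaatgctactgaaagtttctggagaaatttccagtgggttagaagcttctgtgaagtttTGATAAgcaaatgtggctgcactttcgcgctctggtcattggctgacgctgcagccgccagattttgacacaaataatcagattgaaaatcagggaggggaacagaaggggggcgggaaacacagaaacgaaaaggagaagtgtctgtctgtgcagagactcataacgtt
Hdc (chr2:126618629-126618928, minus strand): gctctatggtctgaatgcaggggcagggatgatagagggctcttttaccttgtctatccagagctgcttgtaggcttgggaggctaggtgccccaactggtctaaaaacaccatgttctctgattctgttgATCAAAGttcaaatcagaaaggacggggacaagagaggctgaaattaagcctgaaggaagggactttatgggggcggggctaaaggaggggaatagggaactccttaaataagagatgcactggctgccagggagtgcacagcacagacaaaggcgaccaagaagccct
Dusp1 (chr17:26508423-26508722, minus strand): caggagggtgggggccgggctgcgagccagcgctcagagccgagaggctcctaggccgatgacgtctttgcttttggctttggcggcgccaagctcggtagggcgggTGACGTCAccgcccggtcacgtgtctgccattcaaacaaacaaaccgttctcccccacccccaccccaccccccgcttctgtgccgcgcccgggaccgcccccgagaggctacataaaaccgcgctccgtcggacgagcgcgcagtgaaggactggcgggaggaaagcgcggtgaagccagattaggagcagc
The Cpa3 and Gfi1b windows each held a GATA match, the Hdc window a TCF/LEF match on its reverse strand, and the Dusp1 window a cyclic AMP response element; the Epx window held none of the 5. Over all 32851 windows of the RefSeq table, 18.6% held the GATA motif, 9.33% the TCF/LEF motif, 13.6% the PU.1 motif, 5.20% the AP-1 motif and 1.79% the cyclic AMP response element. A match is a description of letters and not a bound site. Shares were not compared between gene sets, since only 58.5% of the genes tested had a window.

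The largest positive differences of the comparison were those of Prg2 and Epx, granule genes of eosinophils. Of 9 tested genes of the eosinophil list, 6 were called higher and 0 lower, with a median log2 difference of 3.57, against 0.006 over all genes. With values under background set to the bound, that median was 2.54. Prg2, which encodes major basic protein of the eosinophil granule, read 16.22, 15.98 and 15.71 in β-catenin cells, all at the ceiling, and 9.19, 8.20 and 6.92 in control cells. The groups were far apart, and the control arrays were spread over more than 2 log2 units, with array C under background. The difference was at least 209-fold (log2 7.87 ± 0.54, adjusted p = 2.53e-06). Epx, eosinophil peroxidase, read 14.09, 13.97 and 13.98 in β-catenin cells and 7.09, 6.98 and 6.71 in control cells, with every control array under background. It was at least 98.7-fold higher (adjusted p = 3.62e-09).

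Another 3 members of that list were ribonucleases of the eosinophil-associated family, whose sequences are so alike that their probes may share signal. Ear1 read 11.34, 11.04 and 11.17 in β-catenin cells and 6.42, 6.33 and 6.49 in control cells, at least 13.9-fold higher (adjusted p = 2.47e-08). Ear6 was at least 8.31-fold and Ear10 at least 5.80-fold higher, each with all control arrays under background. Prg3, a homologue of major basic protein, was at least 1.45-fold higher (log2 1.71 ± 0.16, adjusted p = 2.97e-05). The 2 surface receptors of eosinophils that were tested did not follow: Siglecf read 6.68, 6.23 and 6.62 in β-catenin cells and 6.28, 6.39 and 6.57 in control cells. Ccr3, the eotaxin receptor, was below background on all 6 arrays too (6.98, 6.81 and 7.15 in β-catenin cells, 7.20, 7.0 and 6.87 in control cells). Il5ra was measured but did not pass the filter on low values.

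Among mast cell and basophil genes, Cpa3, Hdc and Il1rl1 had the largest differences. Of 21 tested, 6 were called higher and 1 lower (median log2 0.13), and 9 were below background in both groups. Cpa3, the mast cell carboxypeptidase whose promoter is printed above, read 10.48, 10.73 and 10.69 in β-catenin cells and 6.16, 6.05 and 6.67 in control cells. It was at least 9.48-fold higher, since the control arrays were all under background (adjusted p = 2.46e-08). Hdc, the histidine decarboxylase that makes histamine, read 11.64, 11.78 and 11.83 in β-catenin cells and 8.98, 9.08 and 9.03 in control cells. All 6 arrays measured it above background, and it was 6.61-fold higher (log2 2.72 ± 0.16, adjusted p = 5.25e-07).

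Il1rl1, the receptor for interleukin 33, read 9.29, 9.04 and 9.32 in β-catenin cells and 6.85, 6.21 and 6.61 in control cells (at least 3.55-fold higher, adjusted p = 4.50e-07). The chymase Cma1 and the basophil protease Prss34 were higher by small amounts close to background, at least 1.22-fold and 1.14-fold. Tpsb2, a tryptase, was called at log2 0.47 with both groups under background, so no fold is given. Mitf, a regulator of mast cell genes, was lower (-0.33 ± 0.10, adjusted p = 0.0494), and that call was lost without the filter on low values and under both other normalizations. Kit, Mcpt8, a basophil protease, and Fcer1a, a chain of the immunoglobulin E receptor, were not called; Mcpt8 read 10.18, 10.38 and 10.33 in β-catenin cells and 10.39, 10.56 and 10.46 in control cells, and Fcer1a was below background throughout.

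**Figure D2:**
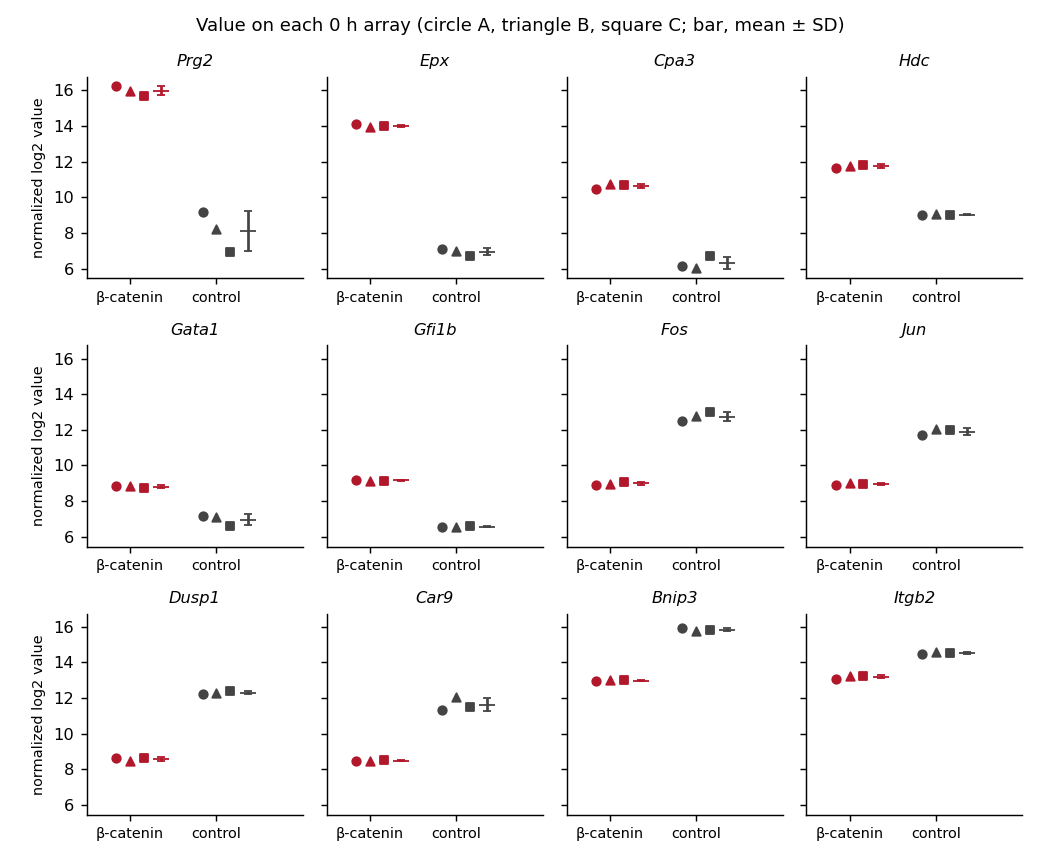
Normalized log2 values (vertical axis) of 12 genes on each array at 0 h, β-catenin cells left of control cells, with circle, triangle and square for arrays A, B and C and a bar for mean ± SD (n = 3). The 12 genes were taken from those called, and their groups are separate, with Prg2, Epx, Cpa3, Hdc, Gata1 and Gfi1b higher and Fos, Jun, Dusp1, Car9, Bnip3 and Itgb2 lower in β-catenin cells.

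Of 16 tested factors of the GATA network, 6 were called higher in β-catenin cells and 0 lower (median log2 0.25). Gata1, the erythroid and eosinophil regulator, read 8.85, 8.87 and 8.71 in β-catenin cells and 7.17, 7.11 and 6.59 in control cells. It was at least 2.68-fold higher, because the control arrays did not pass the background bound (adjusted p = 5.19e-06). Gata2, a regulator of progenitors and mast cells, was measured in both groups, at 9.84, 9.61 and 9.62 in β-catenin cells and 8.57, 8.35 and 8.27 in control cells. It was 2.46-fold higher (log2 1.30 ± 0.13, adjusted p = 5.16e-05).

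Gfi1b, a repressor needed for red cells and platelets, read 9.21, 9.13 and 9.15 in β-catenin cells and 6.56, 6.57 and 6.58 in control cells. It was at least 3.42-fold higher, and its arrays agreed within 0.1 in each group (adjusted p = 1.09e-07). Klf1, the erythroid Krüppel-like factor, was 2.33-fold higher (adjusted p = 5.36e-05), and Zfpm1, the GATA1 cofactor FOG1, 1.70-fold higher (adjusted p = 0.00354). Lmo2, a bridging protein of GATA complexes, was 1.42-fold higher (adjusted p = 0.00531). The genes of mature red cells and megakaryocytes were mixed: 3 of 19 were called higher and 2 lower (median log2 0.13). As shares, 15.8% were higher and 10.5% lower, beside 4.38% and 6.62% of all genes. Gp6, a collagen receptor of platelets, and Itga2b, the platelet integrin chain, were at least 1.54-fold and 1.5-fold higher, from control levels under background, and Tfrc, the transferrin receptor, was 1.78-fold higher. Vwf and Gp1bb, both parts of platelet adhesion, were lower by 1.84-fold and 1.38-fold.

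Among stem and progenitor genes, 2 of 21 were called higher and 3 lower (median log2 0.01). These were 9.52% and 14.3% of the list, beside 4.38% and 6.62% of all genes. Procr, a receptor found on blood stem cells, read 8.77, 8.80 and 8.77 in β-catenin cells and 7.79, 7.76 and 7.88 in control cells, 1.96-fold higher (adjusted p = 8.13e-05). Etv6, an ETS repressor, was 1.37-fold higher, whereas Angpt1, Sox4 and Ly6e were lower, at log2 -0.74, -0.58 and -0.36; the calls of Etv6, Angpt1, Sox4 and Ly6e were each lost when some single array at 0 h was left out.

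Further genes with large differences lay outside the groups above. Akap12, a scaffold for protein kinase A, was listed with the cyclic AMP genes and read 13.03, 13.28 and 13.35 in β-catenin cells and 7.85, 7.76 and 7.68 in control cells. All its arrays were above background and below the ceiling, so that its 44.1-fold difference is a measured one (log2 5.46 ± 0.13, adjusted p = 8.27e-10). Scrg1, a secreted protein named for its part in cartilage formation, was at least 17.3-fold higher, and the sulfotransferase Sult1a1 at least 9.75-fold. Metabolic enzymes followed: the carboxylesterase Ces1c at least 6.94-fold, the glycerol kinase-like Gykl1 at least 5.11-fold, the aldehyde dehydrogenase Aldh1a7 at least 3.74-fold and the phosphodiesterase Gdpd2 at least 3.65-fold higher. Lurap1l was at least 4.93-fold higher. Cp, the copper protein ceruloplasmin, read 11.81, 12.07 and 12.10 in β-catenin cells and 8.47, 9.42 and 9.20 in control cells, 7.80-fold higher (adjusted p = 5.82e-06). Cyp11a1, the first enzyme of steroid synthesis, read 10.99, 10.90 and 10.92 in β-catenin cells and 7.87, 8.13 and 8.15 in control cells, 7.41-fold higher (adjusted p = 1.11e-07).

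Most listed Wnt target genes could not be read in these cells. Of 28 tested, 16 were below background in both groups, 3 were called higher and 1 lower (median log2 0.05). Axin2, the target most often used to read the pathway, read 6.24, 6.59 and 6.21 in β-catenin cells and 6.73, 6.21 and 5.74 in control cells. Lef1, Tcf7 and Ccnd1 were also below background on all 6 arrays. Myc was bright in both groups, at 15.62, 15.50 and 15.49 in β-catenin cells and 15.60, 15.52 and 15.48 in control cells (log2 0.00 ± 0.11, adjusted p = 0.989).

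The 3 higher targets were feedback genes of the pathway. Rnf43, a ligase that removes Wnt receptors, read 7.59, 7.77 and 7.90 in β-catenin cells and 5.93, 5.37 and 6.09 in control cells, at least 1.29-fold higher (log2 1.96 ± 0.18, adjusted p = 2.02e-05). Lgr5, a receptor for R-spondins, passed the bound on 2 of 3 β-catenin arrays and on no control array, at least 1.23-fold higher (adjusted p = 0.0015). Notum, which inactivates Wnt ligands, was above background on every array, at 9.68, 9.82 and 9.98 in β-catenin cells and 9.07, 9.31 and 9.25 in control cells (1.53-fold higher, adjusted p = 0.00465). Nos2 was called lower, with both groups under background. Wif1, a secreted Wnt inhibitor outside the lists and picked out after its value was seen, was at least 1.48-fold higher (log2 1.71, adjusted p = 8.17e-05).

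Among components of the Wnt pathway, 1 of 30 was called higher and 5 lower (median log2 -0.04). That is 3.33% and 16.7% of the list, beside 4.38% and 6.62% of all genes. Tcf7l2, a DNA-binding partner of β-catenin, read 11.45, 11.44 and 11.44 in β-catenin cells and 12.52, 12.86 and 12.72 in control cells. It was 2.39-fold lower (log2 -1.26 ± 0.11, adjusted p = 2.21e-05), the largest difference of a gene of that list. The others called lower were Porcn, which acylates Wnt ligands, at least 1.90-fold, the coactivator Bcl9l 1.60-fold, the receptor Fzd2 at least 1.18-fold and the co-receptor Lrp5 1.37-fold. Ctnnbip1, which binds β-catenin and blocks its contact with TCF factors, was 1.33-fold higher (adjusted p = 0.0103).

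Most of the AP-1 family was lower in β-catenin cells. AP-1 factors are dimers of Fos, Jun, ATF and Maf proteins that growth and stress signals induce within minutes. Of 15 tested, 10 were called lower and 1 higher, with a median log2 difference of -1.37, against 6.62% of all genes called lower. Fos read 8.93, 8.95 and 9.10 in β-catenin cells and 12.47, 12.76 and 12.99 in control cells, 13.4-fold lower (log2 -3.75 ± 0.17, adjusted p = 1.06e-07). Jun read 8.90, 9.04 and 8.96 in β-catenin cells and 11.69, 12.04 and 11.97 in control cells, 7.64-fold lower (adjusted p = 3.84e-08). Neither gene's groups came within 2 log2 units of each other. Atf3, Fosb, Maff and Fosl1 were each lower by 3.81-fold to 4.01-fold, Jund by at least 3.21-fold, Fosl2 by 2.59-fold, Junb by 2.42-fold and Jdp2 by 1.42-fold. Maf, a large Maf factor, was the exception, at 14.49, 14.23 and 14.06 in β-catenin cells and 13.83, 13.51 and 13.64 in control cells (1.51-fold higher, adjusted p = 0.00571).

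Other immediate-early genes followed the same direction in a majority. Of 31 tested in the list of Egr, Nr4a, Klf and similar genes, 17 were called lower and 2 higher (median log2 -0.50). Egr1, a zinc finger factor induced by growth signals, read 11.81, 11.53 and 11.47 in β-catenin cells and 14.41, 14.80 and 14.46 in control cells, 7.74-fold lower (adjusted p = 3.04e-06). Egr2, a regulator of macrophage fate, read 7.34, 7.27 and 7.31 in β-catenin cells and 9.70, 10.36 and 9.50 in control cells, at least 5.49-fold lower. Zfp36, which destabilises cytokine messages, was 5.14-fold lower, Ier3, a stress-induced survival gene, 3.23-fold, and Plk3, a stress-induced kinase, 3.04-fold. The rest of the 17, which include Klf10, Id2, Btg1, Ier2 and Nr4a1, were lower by 1.25-fold to 2.79-fold. Gadd45b, a stress-induced gene, and the nuclear receptor Nr4a2 were the exceptions, 1.39-fold and 1.33-fold higher.

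Negative regulators that the same signals induce were partly lower. Dusp1, a phosphatase that switches off MAP kinases, read 8.63, 8.48 and 8.64 in β-catenin cells and 12.22, 12.30 and 12.42 in control cells, 13.3-fold lower (log2 -3.73 ± 0.11, adjusted p = 3.62e-09). In its list, 4 of 16 were called lower and 1 higher (median log2 -0.08); the other lower ones were Dusp16, Spry1 and Dusp10, by 1.58-fold to 1.67-fold. Rgs18, a G protein regulator of platelets and myeloid cells, read 10.39, 10.35 and 10.19 in β-catenin cells and 7.77, 7.69 and 7.74 in control cells, 5.96-fold higher (adjusted p = 2.04e-08). Of 15 NF-kappaB subunits and feedback genes, 6 were called lower and 0 higher (median log2 -0.27). Nfkbia, the inhibitor IκBα, was 2.52-fold lower, Nfkbiz 2.13-fold, Tnfaip3, the A20 protein, 1.81-fold and Relb 1.34-fold; the other 2, Bcl3 and Birc3, were lower by 1.26-fold and 1.28-fold.

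**Figure D3:**
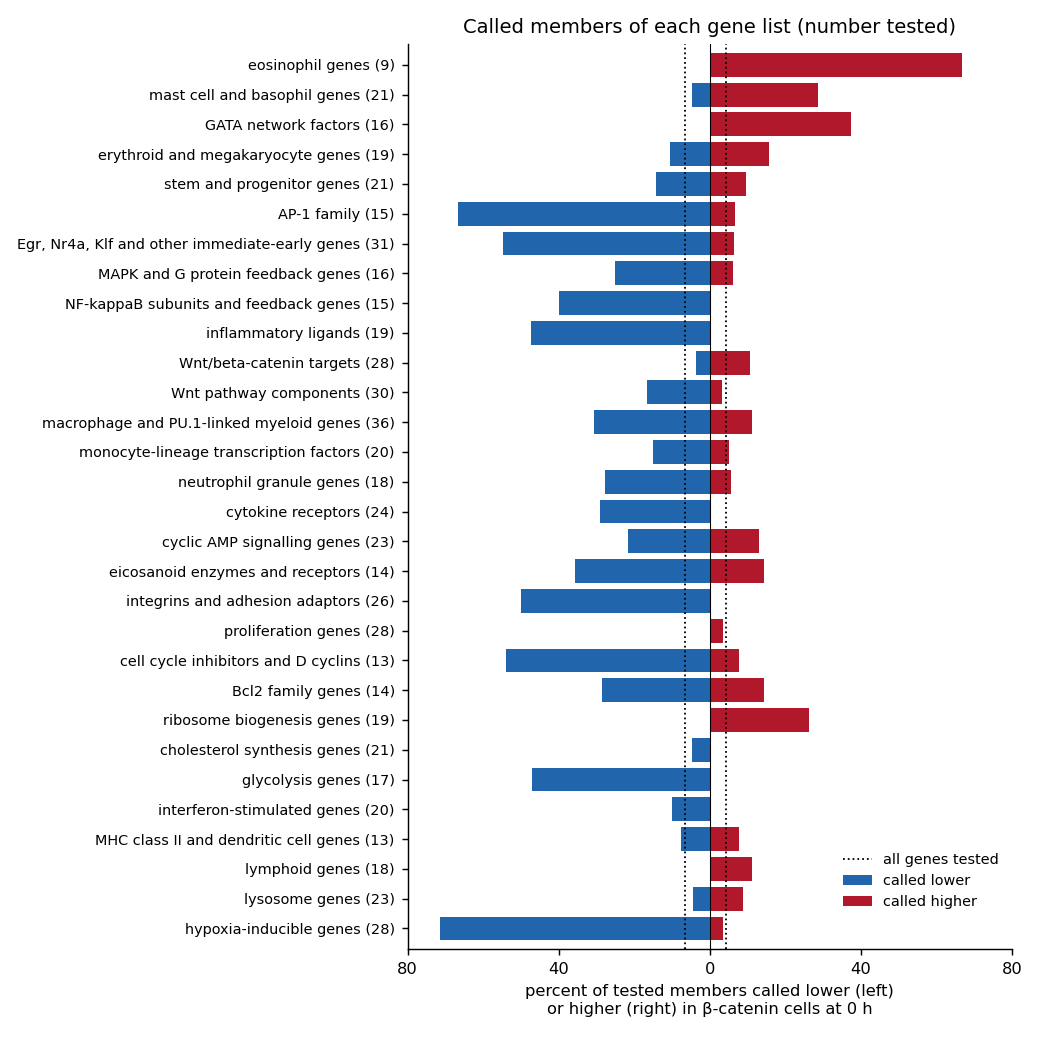
For each gene list (number of members tested in brackets), blue bars to the left show the percent called lower and red bars to the right the percent called higher in β-catenin cells at 0 h; dotted lines mark the shares over all genes tested, 6.62% and 4.38%. The eosinophil bar reaches 66.7% on the right, and the AP-1 and hypoxia-inducible bars 66.7% and 71.4% on the left. The hypoxia-inducible list was written after the differences had been seen, so that its bar is not to be read against the dotted lines. The other lists were chosen with earlier results of these data known, so that the lines give a scale and not a test.

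Inflammatory ligands were lower where they were called: 9 of 19 lower and 0 higher (median log2 -0.30). Osm, oncostatin M, read 8.67, 8.74 and 8.87 in β-catenin cells and 10.92, 11.34 and 11.40 in control cells, 5.51-fold lower (adjusted p = 9.18e-07). The chemokines Ccl3 and Ccl4 were 2.80-fold and 2.62-fold lower, and Tnf was 1.59-fold lower (adjusted p = 0.000413). Among cytokine receptors, 7 of 24 were called lower and 0 higher (median log2 -0.02). Il4ra, the interleukin 4 receptor chain, was 1.83-fold lower, Il13ra1 1.91-fold, Il2rg, the common gamma chain, 1.72-fold and Il17ra 1.69-fold.

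Integrins and adhesion adaptors were lower in 13 of 26, and 0 were higher (median log2 -0.26). Bcar1, the docking protein p130Cas at focal adhesions, read 6.71, 6.72 and 7.13 in β-catenin cells and 10.62, 10.60 and 10.38 in control cells. It was under background in β-catenin cells and at least 8.87-fold lower (adjusted p = 4.43e-07). Itgb2, the common chain of leukocyte integrins, read 13.09, 13.24 and 13.26 in β-catenin cells and 14.46, 14.57 and 14.52 in control cells, 2.49-fold lower (adjusted p = 3.01e-06). Itgb5 was 2.65-fold lower, and Selp, P-selectin, 2.41-fold. Selplg, the ligand of P-selectin, was 2.36-fold lower, and the tetraspanin Cd9 at least 2.13-fold. The remaining 7, Bcar3, Itgae, Itgb7, Nedd9, Pxn, Itgal and Ptk2, were lower by 1.29-fold to 1.87-fold.

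Genes linked to macrophages and PU.1 were already lower in part before induction. Of 36 tested, 11 were called lower and 4 higher (median log2 -0.15), and 10 were below background in both groups. Adgre1, a surface receptor of mature macrophages, read 8.19, 8.24 and 8.05 in β-catenin cells and 9.11, 9.17 and 8.95 in control cells, 1.89-fold lower (adjusted p = 0.00037). Itgam, the CD11b chain, read 7.92, 7.87 and 7.86 in β-catenin cells and 8.56, 8.78 and 8.66 in control cells, 1.72-fold lower (adjusted p = 0.000481). The oxidase subunits Ncf1 and Ncf4 were 2.21-fold and 1.86-fold lower, and Cd68, a lysosomal glycoprotein, 2.13-fold. Fcgr2b, an inhibitory antibody receptor, was 1.51-fold and Clec4a2, a lectin receptor, 1.58-fold higher. Cd36 and Mmp12 were called higher as well, but the call of Cd36 was lost under both other normalizations, and Mmp12 was below background on all 6 arrays. The call of Clec4a2 was lost without control array C or β-catenin array B of 0 h.

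Of 20 transcription factors of the monocyte lineage, 3 were called lower and 1 higher (median log2 -0.18). The shares were 15% and 5%, beside 6.62% and 4.38% of all genes. Nab2, a corepressor of Egr factors, was 1.67-fold, Pparg 1.43-fold and Ets2 1.33-fold lower, and Tfec was 1.39-fold higher; the Ets2 call was lost without the filter on low values. Neutrophil granule genes were lower in 5 of 18 and higher in 1 (median log2 -0.08), with 4 of them at the ceiling on all 6 arrays. Fcnb, ficolin B, read 8.19, 8.26 and 8.23 in β-catenin cells and 10.95, 11.51 and 10.78 in control cells, 7.21-fold lower (adjusted p = 7.04e-06). Lcn2, lipocalin 2, was 3.67-fold, Cxcr2, a chemokine receptor, at least 1.77-fold and Mpo, myeloperoxidase, at least 1.49-fold lower, while Ltf, lactoferrin, was at least 1.28-fold higher.

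Genes known to be induced by low oxygen formed the other large block of lower signals. That list was written after the differences had been seen, shares members with the glycolysis list, and is described by counts only. Of 28 tested, 20 were called lower and 1 higher (median log2 -0.76), and 3 more, Ldha, Pgk1 and Aldoa, were at the ceiling on all 6 arrays. Car9, carbonic anhydrase 9, read 8.46, 8.47 and 8.52 in β-catenin cells and 11.33, 12.05 and 11.49 in control cells, 8.82-fold lower (adjusted p = 9.07e-07). Ndrg1, a stress-induced growth regulator, read 12.71, 12.65 and 12.68 in β-catenin cells and 15.77, 15.78 and 15.64 in control cells, at least 8.28-fold lower (adjusted p = 2.04e-08). Bnip3, a mitophagy receptor, read 12.95, 13.00 and 12.99 in β-catenin cells and 15.93, 15.78 and 15.81 in control cells, at least 7.27-fold lower (adjusted p = 5.62e-06).

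Ankrd37 was 7.40-fold lower and Hmox1, heme oxygenase 1, 4.05-fold. Vegfa, the angiogenic growth factor, read 13.51, 13.44 and 13.46 in β-catenin cells and 14.88, 14.93 and 14.61 in control cells, 2.52-fold lower (adjusted p = 7.82e-06). The oxygen-sensing hydroxylases Egln1 and Egln3 were 2.24-fold and at least 2.25-fold lower, and P4ha1, a collagen hydroxylase, 2.69-fold. The Tfrc signal, higher as given above, was the exception. Oxygen or medium conditions of the cultures are not in the labels, and their part in this difference was not tested.

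Of 17 glycolysis genes, 8 were called lower and 0 higher (median log2 -0.33), and 6 were at the ceiling on all 6 arrays, where a difference could not be read. Slc2a1, the glucose transporter GLUT1, read 14.40, 14.36 and 14.39 in β-catenin cells and was at the ceiling on all control arrays, at least 3.17-fold lower. Pfkl and Pfkp, subunits of phosphofructokinase, were 2.36-fold and 2.26-fold lower and Eno1, enolase, 2.24-fold. The other 4 were Hk1, Hk2, Pfkfb4 and Slc16a3, lower by 1.25-fold to 1.58-fold.

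**Figure D4:**
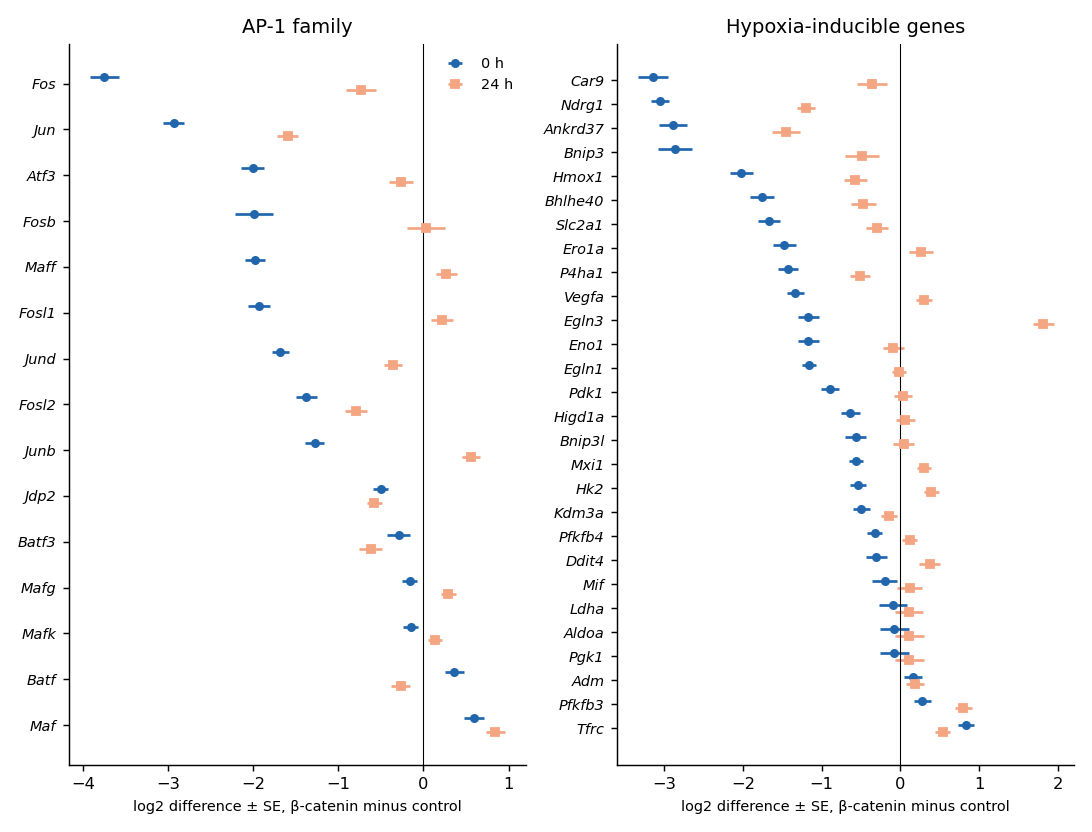
Log2 difference, β-catenin minus control, with its SE (horizontal axis) for the tested members of the AP-1 family (left) and of the hypoxia-inducible list (right), at 0 h (blue circles) and 24 h (orange squares). At 0 h Fos lies at -3.75 and Car9 at -3.14, and at 24 h at -0.73 and -0.35.

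Lower signals were also seen for Mgarp, a mitochondrial protein, at 7.73, 8.19 and 7.69 in β-catenin cells and 11.63, 11.93 and 11.57 in control cells, 14.3-fold lower (adjusted p = 2.61e-05). Csn1s2a, a milk casein, was 9.14-fold lower, Aldh1l2, a mitochondrial folate enzyme, at least 3.76-fold, and Hcar2, the niacin receptor, 7.16-fold.

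Few genes of cell division were called. Of 28 proliferation genes, 1 was called higher and 0 lower (median log2 0.006), namely E2f1 at 1.27-fold. Of 13 cell cycle inhibitors and D cyclins, 7 were called lower and 1 higher (median log2 -0.29). Ccnd3, cyclin D3, read 13.21, 13.39 and 13.44 in β-catenin cells and 14.42, 14.45 and 14.50 in control cells, 2.15-fold lower (adjusted p = 4.00e-05). Cdkn2a was 1.87-fold, Cdkn1a, the p21 inhibitor, 1.59-fold and Cdkn1b, the p27 inhibitor, 1.41-fold lower. Cdkn1c, the p57 inhibitor, was the exception, at 9.54, 9.39 and 9.59 in β-catenin cells and 8.14, 8.12 and 7.94 in control cells, 2.71-fold higher (adjusted p = 2.62e-06).

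Of 14 members of the Bcl2 family, 4 were called lower and 2 higher (median log2 -0.18). The anti-apoptotic Bcl2 read 12.37, 12.49 and 12.40 in β-catenin cells and 11.46, 11.45 and 11.52 in control cells, 1.92-fold higher (adjusted p = 1.86e-05), and Bcl2a1b was 1.92-fold higher too. The pro-apoptotic Bmf was at least 2.43-fold and Bid 1.35-fold lower, and the anti-apoptotic Bcl2l1 and Mcl1 were 1.46-fold and 1.36-fold lower. Of 19 ribosome biogenesis genes, 5 were called higher and 0 lower (median log2 0.32), and 4 were at the ceiling throughout. The 5 were Wdr12, Nolc1, Nop58, Nop2 and Bop1, by 1.25-fold to 1.48-fold; the call of Nop2 was lost under some settings.

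Genes of cyclic AMP signalling and of lipid mediators were called in both directions. Of 23 cyclic AMP genes, 3 were called higher and 5 lower (median log2 -0.08). The shares were 13.0% and 21.7%, beside 4.38% and 6.62% of all genes. Besides Akap12, Rapgef3, the cyclic AMP-activated exchange factor EPAC1, read 14.72, 14.75 and 14.72 in β-catenin cells and 13.05, 12.97 and 12.77 in control cells, 3.49-fold higher (adjusted p = 7.70e-06). Adcy7, an adenylyl cyclase, was 1.72-fold, the prostaglandin receptor Ptger2 1.64-fold and Crem, a cyclic AMP-responsive factor, 1.59-fold lower. Of 14 eicosanoid genes, 2 were called higher and 5 lower (median log2 -0.19). Lta4h, which makes leukotriene B4, was 1.56-fold and its receptor Ltb4r1 1.41-fold higher, while Ptges, a prostaglandin E synthase, was at least 1.80-fold, the prostacyclin receptor Ptgir 1.99-fold and Alox5, the first enzyme of leukotriene synthesis, 1.46-fold lower.

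The remaining lists had few calls in number, which are to be read by share. The shares called higher and lower were 0% and 4.76% for cholesterol synthesis genes and 0% and 10% for interferon-stimulated genes. They were 7.69% and 7.69% for MHC class II and dendritic cell genes, 11.1% and 0% for lymphoid genes and 8.70% and 4.35% for lysosome genes. Over all genes they were 4.38% and 6.62%. Of 21 cholesterol synthesis genes, 1 (Lss) was called lower and 0 higher, and of 20 interferon-stimulated genes, 2 were lower and 0 higher. Isg20, a nuclease, was 4.56-fold lower (adjusted p = 1.73e-07), and Ddx58 1.44-fold. Of 13 genes of MHC class II and dendritic cells, 1 was called higher (H2-DMa) and 1 lower (H2-DMb1), and of 23 lysosome genes, 2 were called higher and 1 lower (Lipa). Of 18 lymphoid genes, 10 were below background in both groups and 2 were called higher, Nkg7, a granule protein of killer cells, by 1.78-fold and Igll1 by at least 1.28-fold. The calls of Ddx58, H2-DMa, H2-DMb1, Lipa and Igll1 were near the threshold and were lost under some settings.

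How far the difference at 0 h was still there after 24 h in 4-OHT was read from the other 6 arrays, which share no array with the 0 h comparison. At 24 h, 4169 genes were called (18.6%), 1950 higher (8.68%) and 2219 lower (9.88%). Of the 983 genes higher at 0 h, 477 were also called higher at 24 h (48.5% of the 0 h list and 24.5% of the 24 h list), and 41 were called lower. Of the 1486 lower at 0 h, 614 were called lower at 24 h (41.3% of the 0 h list and 27.7% of the 24 h list), and 84 were called higher. The 2 effects differed from each other for 1610 genes (7.17%; limma interaction), among them 210 of the 983 higher and 488 of the 1486 lower genes.

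Prg2 and Epx were still far apart at 24 h. Each was at least 56.8-fold higher in β-catenin cells at 24 h, and neither interaction was called (adjusted p = 0.148 for Prg2 and 0.0769 for Epx). At 0 h, Prg2 was at the ceiling in β-catenin cells and Epx under background in control cells. Any change in their difference between the times is therefore unmeasured. Hdc, measured above background on every array, differed by 3.13 on the log2 scale at 24 h, and its interaction was not called either. Sult1a1 was at least 8.79-fold, Cyp11a1 at least 5.61-fold, Gata2 at least 3.59-fold and Klf1 at least 2.36-fold higher at 24 h. Akap12, also measured throughout, differed by 3.33 at 24 h, less than at 0 h (interaction -2.13). Ear1 was at least 9.06-fold and Cpa3 at least 3.84-fold higher at 24 h; their interactions were called, but control arrays under background at both times leave the size of the change unmeasured. The same holds for Gfi1b, at least 1.23-fold higher at 24 h (adjusted p of the interaction = 3.91e-05). Il1rl1 was lower in β-catenin cells at 24 h, at -1.08 (adjusted p of the interaction = 3.73e-06).

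**Figure D5:**
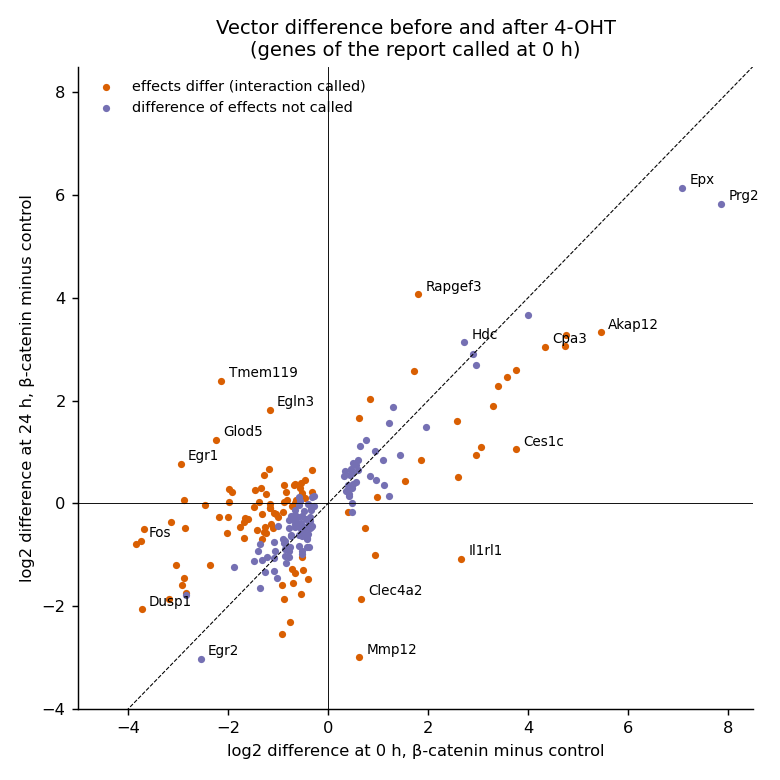
Log2 difference, β-catenin minus control, at 0 h (horizontal axis) and at 24 h (vertical axis) for listed and named genes called at 0 h; the dashed line marks equal differences, and orange points had a called interaction. Epx and Prg2 lie at the upper right, Tmem119 and Egr1 are lower at 0 h and higher at 24 h, and Il1rl1 and Mmp12 the reverse. Fitted values are drawn also for genes with a group under background, such as Mmp12 on all 6 arrays at 0 h.

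Lists with many lower calls at 0 h differed in their calls at 24 h. Inflammatory ligands had 5 lower calls at 24 h and 9 at 0 h, and glycolysis genes 1 at 24 h and 8 at 0 h, whereas NF-kappaB genes had 6 at both times and cytokine receptors 11 at 24 h and 7 at 0 h. Over all genes, 6.62% were called lower at 0 h and 9.88% at 24 h. Among genes called at 0 h, the interaction was called for 6 of 9 inflammatory ligands and 7 of 8 glycolysis genes. It was called for 1 of 6 NF-kappaB genes and 3 of 7 cytokine receptors. Of all 2469 genes called at 0 h, 698 had a called interaction (28.3%). The interaction subtracts the 0 h difference for which such genes were picked. The interaction counts of lists, here and below, are therefore descriptions and not tests. In the AP-1 family, 6 were called lower and 3 higher at 24 h (median log2 -0.26), and 8 of the 11 genes called at 0 h had a called interaction. Fos differed by -0.73 at 24 h (interaction 3.01, adjusted p = 3.50e-05), and Egr1 was higher in β-catenin cells at 24 h, by 0.77 (interaction 3.73, adjusted p = 3.23e-05). The hypoxia-inducible list had 5 called higher and 4 lower at 24 h (median log2 0.09), and 17 of its 21 genes called at 0 h had a called interaction. That list was written after the 0 h differences were seen, and the interaction subtracts the 0 h difference. Its share is therefore not to be read against that over all genes. Egln3, lower at 0 h, was higher by 1.82 at 24 h (adjusted p of the interaction = 7.20e-06). Of the 13 integrin and adhesion genes called at 0 h, 3 had a called interaction, a share near that over all genes, and Itgb2 differed by -1.11 at 24 h.

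Macrophage genes had 25 calls at 24 h and 15 at 0 h, beside 18.6% of all genes called at 24 h and 11.0% at 0 h. At 24 h, 24 of 36 were called lower and 1 higher (median log2 -0.94), and 8 of the 15 genes called at 0 h had a called interaction. Adgre1 differed by -2.54 at 24 h (interaction -1.63, adjusted p = 0.000161), whereas Ncf1 differed by -0.39, less than at 0 h. Tmem119, a membrane protein known as a microglial marker, read 11.18, 11.18 and 11.33 in β-catenin cells and 13.43, 13.54 and 13.14 in control cells at 0 h, and differed by 2.39 in the other direction at 24 h (interaction 4.52, adjusted p = 4.87e-06). Rapgef3 widened to 4.06 at 24 h (interaction 2.26).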

How the data were processed

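Gene expression was measured in 12 PUER samples on single-colour Agilent arrays, 3 for each vector and time. The main values are the authors' deposited normalized log2 intensities, 27676 gene names with 1 probe each; per the submitters' processing notes limma was used, with no version or settings. The deposited table of scanned intensities (43379 spots, 41174 probes) served for background, the scan ceiling and other normalizations. The deposited series matrix held the same log2 values. Names matched RefSeq symbols directly (14728), by synonym (4293) or were kept as listed (8655).

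Here, limma 3.58.1 (R 4.3.3) fitted 4 group means to all 12 arrays (8 residual degrees of freedom; median SE at 0 h 0.134) for the 22461 genes that reached an array's 30th percentile on 3 or more arrays, with two-sided tests and Benjamini-Hochberg adjustment at 0.05. No array was left out or imputed. The background bound was the mode plus 3 SD of values below the mode, set with the data in view. The fit was tested on simulated data. The number of arrays limits the precision.

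Genes were named by rule: the 15 largest called differences each way among genes whose groups do not overlap, up to 4 and 2 called members of each list in its main and other direction, 12 genes always, and the 8 with the largest interaction and the 8 called alike at both times. Further called members are named to account for a list's count. Of 152 genes so chosen, 2 are not reported here. The members and the 29 lists were chosen with earlier results of these data known, and the hypoxia-inducible list was added after this comparison was seen. Alternatives were 2 other normalizations, 3 filters on low values, saturated genes left out, the replicate letter as a block, array weights, another variance prior, array brightness, only the groups compared, and each array left out in turn.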

Additional observations from a re-analysis of the deposited data

Results flagged for a closer look

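For 74 of the genes reported, the vector difference at 24 h differed from that at 0 h in a test of the difference itself (limma interaction, adjusted p under 0.05). The values below are log2 differences at 24 h minus those at 0 h, so that a positive value means a difference that lies higher after 4-OHT. The 0 h difference enters each value with a minus sign, and the genes were chosen for called differences at 0 h or for large interactions, so that the balance of signs is not read. For 28 of the 74 genes the lower group was under background on at least 1 array, or the higher group at the scan ceiling, at 0 h or 24 h, so that the value is a fitted one whose size is not measured. These are Ear1, Scrg1, Cpa3, Ear6, Ces1c, Ear10, Gykl1, Lurap1l, Aldh1a7, Gdpd2, Il1rl1, Gfi1b, Gata1, Gp6, Notum, Cd36, Bcl2a1b, Mmp12, Mgarp, Bcar1, Ndrg1, Aldh1l2, Bnip3, Nos2, Porcn, Ptges, Bmf and Slc2a1. Mmp12 was under background on all 6 arrays at 0 h, and its 0 h direction turned under 75th percentile scaling.

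Among genes higher in β-catenin cells at 0 h, the value was -2.13 for Akap12, -2.71 for Ces1c, -1.95 for Aldh1a7, -2.03 for Gdpd2, -3.74 for Il1rl1, -2.07 for Gfi1b, -2.52 for Clec4a2, -1.95 for Bcl2a1b and -3.61 for Mmp12. It was nearer 0 for the others, namely -1.49 for Ear1, -1.68 for Scrg1, -1.29 for Cpa3, -1.17 for Ear6, -1.11 for Ear10, -1.13 for Gykl1, -1.42 for Lurap1l, -1.0 for Gata1, -1.11 for Gp6, -0.85 for Procr, -0.97 for Rgs18, -0.58 for Ctnnbip1 and -1.22 for Cd36.

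Among genes lower in β-catenin cells at 0 h, the value was 3.04 for Mgarp, 3.01 for Fos, 3.18 for Bcar1, 2.79 for Car9, 3.73 for Egr1, 2.96 for Aldh1l2, 2.38 for Bnip3, 2.02 for Fosb, 2.42 for Osm, 4.52 for Tmem119 and 3.48 for Glod5. For the next group it was 1.67 for Dusp1, 1.33 for Csn1s2a, 1.85 for Ndrg1, 1.34 for Jun, 1.44 for Ankrd37, 1.74 for Atf3, 1.42 for Ccl3, 1.41 for Ccl4, 1.64 for Vegfa, 1.24 for Ncf4, 1.37 for Slc2a1, 1.41 for Pfkl and 1.92 for Isg20. Smaller values were 1.09 for Hcar2, 1.16 for Zfp36, 1.01 for Ier3, 1.03 for Nos2, 1.05 for Bcl9l, 1.08 for Pfkp and 1.07 for Eno1. Under 1 it was 0.56 for Gp1bb, 0.67 for Spry1, 0.66 for Dusp10, 0.64 for Nfkbia, 0.84 for Porcn, 0.75 for Ncf1, 0.67 for Pparg, 0.91 for Ptges, 0.73 for Ptgir, 0.81 for Selp, 0.63 for Ccnd3, 0.73 for Cdkn2a, 0.74 for Bmf and 0.73 for Lss.

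For the 7 genes whose difference kept its direction and was larger at 24 h the value was 1.04 for Notum, -1.63 for Adgre1, -0.66 for Il13ra1, -0.57 for Ptger2, 2.26 for Rapgef3, 1.20 for Nkg7 and -1.09 for Lipa, and Rapgef3, Nkg7 and Notum were higher and the others lower in β-catenin cells at both times.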

How the results depend on the processing

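The count of called genes at 0 h stayed between 2068 (no filter on low values) and 3180 (only genes above background) under every planned setting other than array weights, which gave 4350, and the omission of an array. Normexp correction with quantile normalization called 3118 genes, split into 1552 higher and 1566 lower (49.8% higher, against 39.8% in the main setting). Leaving out 1 array gave 1529 to 2907 calls; the lowest were 1529 without β-catenin array B, 1600 without β-catenin array C and 1609 without control array B, all of 0 h. At 24 h, a fit of the 2 groups alone called 2551 genes, the 75th percentile scaling gave 59.9% of calls higher, against 46.8%, and leaving out 1 array gave 2780 to 4823 calls. For the interaction, array weights gave 2810 calls, and leaving out 1 array 1078 to 2104.

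Of 142 reported genes called at 0 h, 125 kept call and direction in every alternative that tested them other than the omission of an array, and 109 in those too; 1 changed direction. Calls were lost in at least 1 setting that kept every array for Cd36, Ddx58, Ets2, Etv6, Fzd2, Gla, H2-DMa, H2-DMb1, Igll1, Lipa, Lss, Ltf, Ly6e, Mitf, Mmp12, Nop2 and Ptgds, and only with an array left out for Alox5, Angpt1, Bid, Cdkn1b, Clec4a2, Ctnnbip1, E2f1, Gp1bb, Ltb4r1, Mcl1, Nolc1, Nop58, Nos2, Relb, Sox4 and Tfec. The direction changed for Mmp12, at -0.00424 under the 75th percentile scaling. The other direction changes were in genes not called, near 0 or below background. Under normexp and quantile normalization the log2 difference was -0.0267 for Ctnnb1, 0.22 for Tcf7, -0.12 for Ccnd1 and 0.0903 for Csf1r. The 75th percentile scaling gave 0.13 for Tcf7, -0.16 for Ccnd1 and 0.00926 for Csf1r. Array weights gave -0.0119 for Ctnnb1, 0.0142 for Tcf7, -0.00015 for Myc and 0.0311 for Csf1r. With 1 array left out the ranges were -0.0435 to 0.0582 for Ctnnb1, -0.12 to 0.37 for Axin2, -0.091 to 8.0e-05 for Tcf7, -0.0550 to 0.15 for Ccnd1, -0.0371 to 0.0363 for Myc and -0.26 to 0.16 for Csf1r. The causes of these changes were not tested.

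Whether the letters A, B and C pair the samples was not settled. Same-letter arrays of the 2 vectors at 0 h had deviations from their group means that correlated at 0.195, -0.002 and 0.074. Arrays of different letters lay between -0.169 and 0.121. At 24 h the same-letter values were 0.188, 0.189 and 0.149, and those of different letters lay between -0.197 and 0.0015. With the letter as a replicate block, 2245 genes were called at 0 h, 4004 at 24 h and 1441 in the interaction. The analysis is limited by 3 arrays a group, by signals under background and by the scan ceiling.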
